A study of Mus musculus with 21 samples.

Results

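The members of 5 enzyme families that act on alcohols, aldehydes, ketones, esters and amines were followed through the conversion of mouse hepatocytes into cultured progenitor cells and back towards a hepatocyte state. They were chosen by name: every array probe whose gene name begins with Adh, Aldh, Ces or Fmo and a number, or with Akr1, a letter and a number. This gave 109 probes of 68 genes among the 56605 probes and 37011 genes on the array, with 6 alcohol dehydrogenase, 21 aldehyde dehydrogenase, 15 aldo-keto reductase, 19 carboxylesterase and 7 flavin monooxygenase genes. The cells were chemically induced liver progenitors (CLiPs), which are cells obtained from hepatocytes in culture, taken from female C57BL/6 mice and measured with 1-colour Agilent arrays.

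There were 7 groups of 3 arrays. Late CLiPs (passages 11 and 12) were taken after 8 days with oncostatin M and dexamethasone (late induced), after 8 days without them (late uninduced), and before induction (late day 0). CLiPs of passage 1 were taken in the same way (P1 induced, P1 uninduced and P1 day 0), and the last group was freshly isolated hepatocytes (fresh). Oncostatin M is a cytokine of the interleukin 6 family, and dexamethasone is a synthetic glucocorticoid. The labels name no genetic change and do not say whether the 3 arrays of a group came from separate animals or cultures, so that the p-values reflect sample-to-sample spread that may be technical. Late replicate 3 was passage 11 in each late group, and late replicates 1 and 2 were passage 12.

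In the liver these families share out the handling of reactive carbonyl compounds. Alcohol dehydrogenases turn alcohols, retinol among them, into aldehydes, and aldehyde dehydrogenases turn aldehydes into acids. Members of the second family also serve the breakdown and synthesis of amino acids and the folate cycle. Aldo-keto reductases of family 1 reduce aldehydes, sugars and steroids, carboxylesterases cut esters of drugs and lipids, and flavin monooxygenases add oxygen to nitrogen and sulfur atoms of drugs and dietary amines. Adult hepatocytes are rich in most of them.

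A level is the log2 signal of the brightest probe of a gene, relative to the 75th percentile of its array. A gene rose or fell where limma gave a Benjamini-Hochberg adjusted p under 0.05, over all tested genes, and a change of at least 2-fold. Dim in a group means here that no array of the 3 had the probe well above background, and a change against a dim group is written as at least so many fold. In the fits with fresh or P1 arrays 56 of the 68 genes passed the filter on dim probes, which asked for a probe well above background on all arrays of at least 1 group, and 40 passed in the fit of the late arrays. The 12 that did not pass in the fits with fresh or P1 arrays were Adh6-ps1, Adh6a, Adh7, Akr1c21, Aldh1a3, Aldh3b2, Ces1a, Ces2h, Ces4a, Ces5a, Fmo6 and Fmo9. Of these, Aldh1a3, Aldh3b2, Ces1a, Ces2h, Ces4a and Ces5a did not exceed background clearly on any of the 21 arrays, while 31 members did on all. In these bulk samples, fewer cells of a type and less RNA per cell cannot be told apart.

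The late arrays came from another scanner and another version of the extraction software, so that passage and scanner cannot be told apart where late CLiPs are set against P1 CLiPs or fresh hepatocytes. The 75th percentile signal was 881 to 1241 on late arrays, 466 to 789 on P1 arrays and 291 to 332 on fresh arrays, and the share of probes well above background was 56.6% to 60.5%, 49.5% to 56.1% and 46.1% to 46.8%. Each fresh array lay on a slide of its own, the P1 arrays on 2 slides, and the late arrays on 1 slide except late induced replicate 3, which had its own. Of the 10 hepatocyte markers looked up, 9 were on the array and all 9 were well above background on every fresh array. Their summed linear signal, in multiples of the 75th percentile, was 789 to 1170 in late induced, 351 to 524 in late uninduced, 78.8 to 196 in late day 0, 2280 to 2770 in P1 induced, 1290 to 1420 in P1 uninduced, 1190 to 1500 in P1 day 0 and 5530 to 6090 in fresh samples. The summed signal of the 8 Kupffer cell and macrophage markers was 3.8 to 4.31 in late induced, 7.39 to 9.7 in P1 induced, 15.8 to 22.1 in P1 uninduced, 2.9 to 3.25 in P1 day 0 and 9.18 to 31.2 in fresh samples. All 8 were well above background on every fresh array, and in each P1 group 5 of them were dim (Clec4f, Cd5l, Adgre1, C1qa and C1qc). The sum of the 7 endothelial markers was 0.283 to 0.316 in late induced, 0.614 to 0.743 in P1 induced, 0.519 to 0.639 in P1 uninduced, 0.457 to 0.508 in P1 day 0 and 10.8 to 18 in fresh samples, with Kdr, Lyve1, Cdh5 and Tek dim in every CLiP group. The part of other cell types in the members' levels was not tested.

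**Figure D1:**
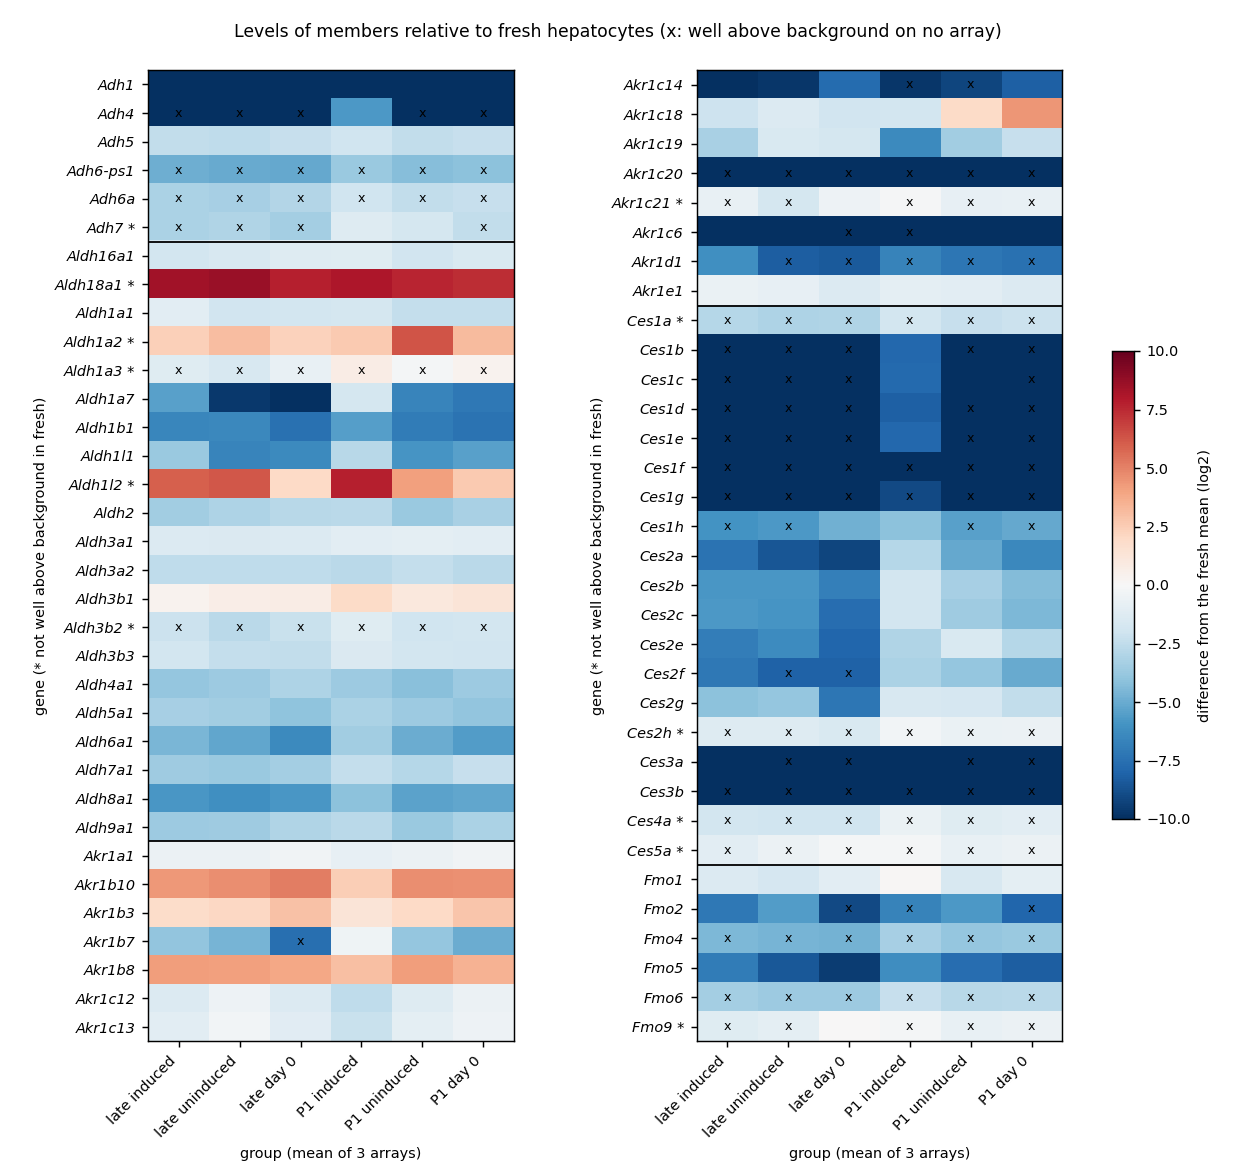
Mean level of each gene shown in the 6 CLiP groups minus its mean in fresh hepatocytes (colour, log2, limits at 10 and -10), with genes in rows and groups in columns. A cross marks a group in which the probe was well above background on no array, and an asterisk a gene that was so in fresh hepatocytes; the rows of Ces1b to Ces1e are palest in P1 induced CLiPs, and those of Aldh18a1, Aldh1l2, Akr1b10, Akr1b3 and Akr1b8 are red throughout.

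The first comparison asked what conversion to P1 CLiPs did to the families. Of the 56 members tested, 44 fell and 8 rose in P1 day 0 CLiPs against fresh hepatocytes, where 25.2% of all 20631 tested genes fell and 25.4% rose. The median log2 change of the members was -4.16, or -3.81 with dim genes at their bound, against -0.01 over all tested genes. All 15 tested carboxylesterases and all 3 tested alcohol dehydrogenases fell, as did 15 of 19 aldehyde dehydrogenases, 4 of 5 flavin monooxygenases and 7 of 14 aldo-keto reductases. The members that rose were 4 aldo-keto reductases and 4 aldehyde dehydrogenases. Of the 56, 11 passed the filter through the fresh arrays alone, so that the filter favoured a fall in them, namely Adh1, Akr1c6, Akr1c14, Akr1c20, Akr1d1, Ces1f, Ces1g, Ces1h, Ces3b, Fmo2 and Fmo4.

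Among the alcohol dehydrogenases, Adh1, the class I enzyme that oxidises ethanol and retinol, had log2 levels of -3.00, -3.18 and -3.75 on the P1 day 0 arrays, against 6.88, 7.11 and 7.21 on the fresh arrays. The log2 change was -10.38 (SE 0.368, limma adjusted p = 8.8e-10), and a further probe of Adh1 for the same transcript was dim in P1 day 0 CLiPs. Adh1 had passed the filter through the fresh arrays alone, which favoured a fall. Adh4, the class II enzyme, was dim in P1 day 0 CLiPs and averaged 5.82 ± 0.38 (SD, n = 3) in fresh hepatocytes, so that it was at least 837-fold lower. Adh5, which oxidises the glutathione adduct of formaldehyde and is found in most cells, kept a far higher share of its level. It stood at 5.71, 5.71 and 5.86 in P1 day 0 CLiPs against 8.04, 8.18 and 8.00 in fresh hepatocytes, a log2 change of -2.31. Adh7, the class IV enzyme, was dim in both.

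Of the 19 aldehyde dehydrogenases 15 fell and 4 rose, beside 25.2% of all tested genes that fell and 25.4% that rose. The largest falls were in Aldh1b1, a mitochondrial acetaldehyde dehydrogenase (-7.35), and Aldh1a7, a close relative of the retinaldehyde dehydrogenase Aldh1a1 (-7.12). Aldh6a1 of valine breakdown (-5.60), Aldh1l1, the cytosolic 10-formyltetrahydrofolate dehydrogenase (-5.41), Aldh8a1 (-5.19), and Aldh5a1, the succinic semialdehyde dehydrogenase (-3.95), followed. Aldh4a1 of proline breakdown (-3.67), Aldh2, the main mitochondrial acetaldehyde dehydrogenase (-3.22), and Aldh9a1 (-3.16) also fell. Aldh3a2, the fatty aldehyde dehydrogenase, fell by 2.68, Aldh1a1 by 2.34 and Aldh7a1 of lysine breakdown by 2.29 on the log2 scale. Aldh3b3 (-1.94), Aldh16a1 (-1.51) and Aldh3a1 (-1.03) changed least among those that fell, and Aldh3a1 was under 2-fold after quantile normalization, after normexp background correction and without fresh replicate 3.

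Among the aldehyde dehydrogenases that rose, Aldh18a1, which makes the precursor of proline and ornithine, had log2 levels of 2.05, 2.15 and 2.19 in P1 day 0 CLiPs and was dim in fresh hepatocytes, at least 42.8-fold higher. Aldh1l2, the mitochondrial counterpart of Aldh1l1, stood at -1.68, -2 and -2.17 in P1 day 0 CLiPs and was likewise dim in fresh hepatocytes, at least 2.53-fold higher. After normexp background correction the change of Aldh1l2 came under 2-fold (0.63). Aldh1a2, the retinaldehyde dehydrogenase best known from the embryo, where it makes retinoic acid, was at least 4.77-fold higher, and Aldh3b1 had a log2 change of 1.26 (SE 0.207, adjusted p = 0.00019).

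Of the 14 tested aldo-keto reductases 7 fell, 4 rose and 3 did not pass, beside 25.2% of all tested genes that fell and 25.4% that rose. Akr1c6, a 17β-hydroxysteroid dehydrogenase, stood at -4.71, -3.21 and -6.00 in P1 day 0 CLiPs against 8.97, 9.37 and 8.84 in fresh hepatocytes, with the probe well above background on 1 of the 3 P1 day 0 arrays. Akr1c20 was at least 2130-fold lower, Akr1d1, the 5β-reductase of bile acid synthesis, at least 51.8-fold lower, and Akr1c14, a 3α-hydroxysteroid dehydrogenase, had a log2 change of -8.18. Akr1c14 and Akr1b7 were well above background on 1 of the 3 P1 day 0 arrays. The filter had admitted Akr1c6, Akr1c14, Akr1c20 and Akr1d1 through the fresh arrays alone, which favoured a fall in them. Akr1b7 (-4.96), Akr1c19 (-2.30) and Akr1e1 (-1.33) fell as well. Akr1a1, the general aldehyde reductase, Akr1c12 and Akr1c13 did not pass the fold threshold (-0.37, -0.61 and -0.47).

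The aldo-keto reductases that rose were Akr1b3, the mouse aldose reductase, its relatives Akr1b8 and Akr1b10, and Akr1c18, the 20α-hydroxysteroid dehydrogenase that inactivates progesterone. Akr1b10 had log2 levels of 3.15, 3.37 and 3.69 in P1 day 0 CLiPs against -0.72, -1.52 and -1.20 in fresh hepatocytes, a change of 4.55 (SE 0.225, adjusted p = 1.2e-08), and its other 2 probes both gave 4.17. Akr1c18 had levels of 3.01, 2.27 and 3.52 against -1.43, -1.16 and -1.83, a change of 4.41. In both genes all P1 day 0 arrays lay above all fresh arrays. Akr1b8 rose by 3.51 and Akr1b3 by 2.77. Akr1b7 and Akr1b3, Akr1b8 and Akr1b10 are neighbours, with their probes at chr6:34253930-34372964 (mm9), yet Akr1b7 fell while the other three rose.

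The carboxylesterases form clusters on chromosome 8, with Ces1 and Ces5a probes at chr8:95544137-96013843 and Ces2, Ces3 and Ces4a probes at chr8:107263207-107673659 (mm9). The median log2 change of the 15 tested genes was -10.70, or -8.70 with dim genes at their bound. Ces1f, Ces1g, Ces1h and Ces3b among them had passed the filter through the fresh arrays alone, which favoured a fall. Ces3a, with levels of 8.65, 8.92 and 8.31 in fresh hepatocytes, was dim in P1 day 0 CLiPs and at least 5850-fold lower. Ces1c, a carboxylesterase secreted into mouse plasma, was dim as well (at least 4890-fold lower), as were Ces1f (at least 1680-fold), Ces1d, a hydrolase of triacylglycerol (1030-fold), Ces1b (713-fold), Ces3b (706-fold), Ces1e (538-fold), Ces1g (417-fold) and Ces1h (8.4-fold). The probes of Ces1b and Ces1c share 89.1% of their bases in the best ungapped match, so that their signals may not be independent, while no other pair of members' probes passed 56.6%. Probes were compared with each other and not with the transcripts of related genes, so these values cannot show that other signals are independent.

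The Ces2 cluster stayed measurable. Ces2a stood at -2.01, -1.46 and -1.11 in P1 day 0 CLiPs against 4.67, 4.99 and 5.14 in fresh hepatocytes (log2 change -6.46, SE 0.246), and Ces2e at 3.25, 3.40 and 4.16 against 6.17, 6.67 and 6.46 (-2.83). All 6 tested Ces2 genes fell, the others being Ces2f (-5.04), Ces2c (-4.48), Ces2b (-4.38) and Ces2g (-2.48). Ces2 enzymes hydrolyse drugs and acylglycerols in liver and gut.

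Among the flavin monooxygenases, Fmo5 fell to levels of -1.48, -1.49 and -1.12 in P1 day 0 CLiPs, against 7.11, 6.92 and 6.71 in fresh hepatocytes (-8.28, SE 0.221). Fmo2 and Fmo4 were dim in P1 day 0 CLiPs, Fmo2 at least 62.8-fold lower and Fmo4 at least 3.15-fold. For Fmo1, which acts on drugs and amines, the result depended on the probe. Its brightest probe over all arrays, which was designed to an Ensembl transcript, changed by -0.99 and did not pass, at -0.95, -1.18 and -1.30 in P1 day 0 CLiPs against 0.01, -0.22 and -0.26 in fresh hepatocytes. A pair of probes for the RefSeq transcript of Fmo1 averaged 4.61 and 1.44 in fresh hepatocytes and were dim in P1 day 0 CLiPs.

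**Figure D2:**
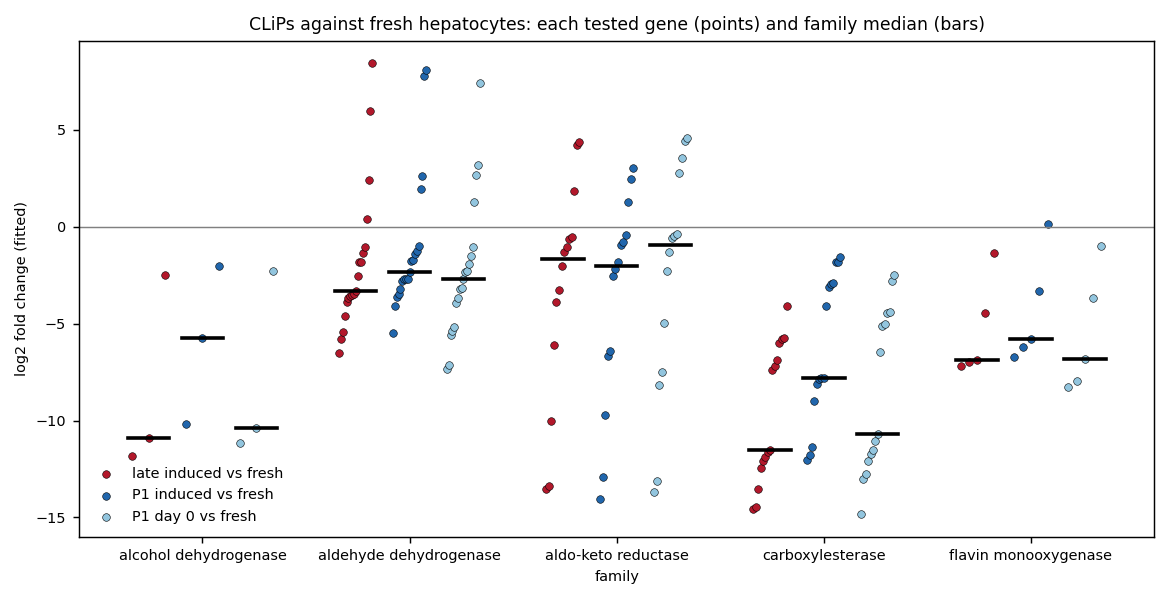
Fitted log2 fold change against fresh hepatocytes of every tested gene (points) by family, for late induced, P1 induced and P1 day 0 CLiPs, with family medians as bars. Fitted values of dim genes are not bounds; all 15 carboxylesterases lie below 0 in the 3 comparisons, and the aldehyde dehydrogenases and aldo-keto reductases spread to both sides of 0.

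The next comparison asked what 8 days of hepatic induction did to P1 CLiPs, with P1 CLiPs kept 8 days without the inducers as the control. Of the 56 members, 19 rose and 8 fell, where 9.68% of all tested genes rose and 9.02% fell. The median log2 change was 0.57 for the members and 0.05 for all genes. By family, 9 of 15 carboxylesterases, 6 of 19 aldehyde dehydrogenases, 2 of 5 flavin monooxygenases, 1 of 3 alcohol dehydrogenases and 1 of 14 aldo-keto reductases rose. The genes that fell were 6 aldo-keto reductases, Aldh1a2 and Ces2e.

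Aldh1a7 had the largest rise. Its log2 levels were 4.70, 4.32 and 5.08 in P1 induced CLiPs against -0.46, 0.04 and -0.15 in P1 uninduced CLiPs, a change of 4.89 (SE 0.201, adjusted p = 4.5e-08). The neighbouring gene Aldh1a1, whose probe lies close by on chromosome 19, changed by 0.66 and did not pass. Aldh1l2 stood at 3.24, 2.97 and 3.29 against -0.92, -0.25 and -0.34 (3.67, SE 0.188), and Aldh1l1 at 6.4, 6.29 and 6.76 against 3.28, 3.27 and 3.51 (3.13, SE 0.177). Both 10-formyltetrahydrofolate dehydrogenases rose with induction. Aldh1b1 (1.51), Aldh6a1 (1.45) and Aldh8a1 (1.26, but 0.86 after normexp background correction) rose by less, and Aldh2 lay at the threshold with a log2 change that was just under 2-fold (adjusted p = 0.007).

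Adh4 came back from a dim level. It stood at 0.06, -0.35 and 0.45 in P1 induced CLiPs and was dim in P1 uninduced CLiPs, at least 16.6-fold higher, whereas Adh1 (0.02) and Adh5 (0.43) did not pass. Ces1c had levels of 0.69, -0.12 and 1.13 in P1 induced CLiPs against -5.02, -3.29 and -3.50 in P1 uninduced CLiPs, a change of 4.50 (SE 0.623, adjusted p = 0.00018). The related genes were dim without the inducers and higher with them, Ces1d at least 3.94-fold, Ces1b at least 3.29-fold, Ces1e at least 2.56-fold and Ces3a at least 1.78-fold. Ces1f and Ces3b were dim in both groups and did not pass, and Ces1g passed with all 6 arrays not well above background, so that no fold is given for it. Ces2a (2.20), Ces2c (1.74) and Ces2b (1.48) rose too. Ces2e went the other way, at 3.63, 3.25 and 3.50 in P1 induced CLiPs against 4.71, 5.01 and 4.94 in P1 uninduced CLiPs (-1.43, SE 0.226). With all 21 arrays in the fit Ces2b, Ces2c and Ces2e did not pass (adjusted p = 0.13, 0.072 and 0.17).

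The promoters of 4 genes that induction raised are shown, Aldh1a7 and Aldh1l1 because they also rose on induction of late CLiPs, and Ces1b and Ces1c as neighbours in 1 cluster. Fmo5, which likewise rose on induction of late CLiPs, is not shown. Of the 68 members 53 had an entry in the reference table, Adh4 and Akr1b7 among them. Ces1b had 2 entries, of which the first is shown. The windows are the 250 bases before the RefSeq start of transcription (GRCm38.p6), written 5′ to 3′ on the strand of the gene. Capitals mark the C/EBP motif TTGCNNAA, which binds factors such as Cebpa and Cebpb. The regions are chr19:20727557-20727806 (minus strand) for Aldh1a7, chr6:90550543-90550792 (plus strand) for Aldh1l1, and chr8:93079941-93080190 and chr8:93131284-93131533 (both minus strand) for Ces1b and Ces1c.
Aldh1a7: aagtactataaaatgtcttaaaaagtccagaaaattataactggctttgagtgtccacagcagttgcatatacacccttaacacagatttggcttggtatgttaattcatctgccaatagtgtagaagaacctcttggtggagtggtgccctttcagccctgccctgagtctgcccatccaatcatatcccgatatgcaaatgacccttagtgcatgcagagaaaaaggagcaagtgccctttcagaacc
Aldh1l1: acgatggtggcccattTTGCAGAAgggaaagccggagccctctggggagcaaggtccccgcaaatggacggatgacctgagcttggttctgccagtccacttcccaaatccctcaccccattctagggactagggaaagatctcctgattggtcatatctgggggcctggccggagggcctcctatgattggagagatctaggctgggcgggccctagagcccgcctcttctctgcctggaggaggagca
Ces1b: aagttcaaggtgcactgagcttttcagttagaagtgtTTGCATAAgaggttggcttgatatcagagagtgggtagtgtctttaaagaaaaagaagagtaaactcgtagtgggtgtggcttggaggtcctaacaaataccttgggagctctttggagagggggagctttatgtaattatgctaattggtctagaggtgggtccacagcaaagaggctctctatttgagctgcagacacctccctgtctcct
Ces1c: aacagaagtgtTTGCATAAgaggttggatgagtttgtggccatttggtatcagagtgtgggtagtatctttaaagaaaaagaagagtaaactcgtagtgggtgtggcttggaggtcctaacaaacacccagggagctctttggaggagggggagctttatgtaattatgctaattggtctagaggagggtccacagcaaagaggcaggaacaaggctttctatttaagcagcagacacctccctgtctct

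Searched on both strands, the C/EBP motif was in the windows of Aldh1l1, Ces1b and Ces1c and in 9.56% of all 32851 promoters of the table. Among the 58 promoters whose gene name follows the rule for members, 12 had it (20.7%). The windows of Ces1b and Ces1c were 81.1% identical in a global alignment, with the same 8 letters capitalised, while other pairs of these windows were 41.8% to 48.9% identical. The STAT motif TTCNNNGAA (7.02% of promoters), the antioxidant response element TGACNNNGC (10.2%), the glucocorticoid receptor half-site TGTTCT (16.1%) and the full palindromic glucocorticoid response element (0.00913%), which contains the half-site, were in none of the 4 windows. Among the 58 promoters of member names, which include both entries of Ces1b, the STAT motif was in 12.1% and the antioxidant response element in 5.17%. The half-site was in 13.8% of them and the full palindrome in 0. No difference from the shares over all promoters was tested. All these are matches of letters and show no binding.

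Of the 14 tested aldo-keto reductases 6 fell on induction, 1 rose and 7 did not pass, beside 9.02% of all tested genes that fell and 9.68% that rose. Akr1c18 stood at -3.09, -3.61 and -3.27 in P1 induced CLiPs against 0.53, -0.21 and 1.07 in P1 uninduced CLiPs (-3.79, SE 0.363, adjusted p = 1.3e-05), and Akr1c19 at -0.48, -1.13 and -1.13 against 1.40, 2.18 and 2.34 (-2.88). Akr1b10 fell to 1.17, 1.56 and 1.16, against 3.32, 3.32 and 3.79 (-2.18, SE 0.225). Thus Akr1b10, Akr1b8 (-1.15) and Akr1c18 rose with conversion and fell with induction, though Akr1b8 came under 2-fold without P1 induced replicate 3 (-0.96). Akr1c12 (-1.30) and Akr1c13 (-1.21) fell as well, and with Akr1c18 and Akr1c19 they make up the 4 genes whose probes lie at chr13:4131895-4269464 (mm9). Akr1b7, the neighbour of Akr1b10, instead rose, at 0.77, 0.49 and 0.46 in P1 induced CLiPs against -3.06, -3.08 and -2.56 in P1 uninduced CLiPs (3.47, SE 0.381, adjusted p = 3.4e-05). Akr1b7 was the sole member of its family to rise.

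Among the flavin monooxygenases Fmo5 rose by 1.42, with levels of 0.52, 0.30 and 1.25 in P1 induced CLiPs against -0.86, -0.69 and -0.64 in P1 uninduced CLiPs. A further probe of Fmo5 for the same transcript changed by 0.66 and was dim in both groups. Within the slide that held 2 induced and 1 uninduced array, Fmo5 (1.41, adjusted p = 0.12) and Akr1b8 (-1.34, adjusted p = 0.054) did not pass, and within the other P1 slide Akr1b8 (-0.89) and Aldh1b1 (0.88) did not. Fmo1 rose by 1.73 on its brightest probe, but the pair for the RefSeq transcript were dim in both groups, and with the mean of all probes Fmo1 did not pass (0.42, adjusted p = 0.14).

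Culture for 8 days without the inducers changed fewer members. In P1 uninduced CLiPs against P1 day 0 CLiPs, 7 rose and 2 fell of 56, where 6.28% of all tested genes rose and 4.87% fell. Aldh1a2 stood at 2.31, 2.07 and 1.88 in P1 uninduced CLiPs against -0.76, -0.70 and -1.64 in P1 day 0 CLiPs (3.12, SE 0.481, adjusted p = 0.00066). The others that rose were Fmo2 (at least 1.14-fold), Aldh1l2 (1.44), Ces2a (1.36), Ces2e (1.29), Ces2f (1.18) and Ces2b (1.07), and the genes that fell were Akr1c18 (-2.47) and Akr1c19 (-1.21). The call of Fmo2 was lost with the mean of all its probes (0.49, adjusted p = 0.14) and after normexp (0.68), and a further probe for its RefSeq transcript was dim in both groups. Ces2b (0.88) and Ces2f (0.57) also came under 2-fold after normexp. The calls of Ces2a, Ces2b, Ces2e and Ces2f were lost with all 21 arrays in the fit (adjusted p = 0.18, 0.31, 0.24 and 0.19). Without P1 day 0 replicate 3 or P1 uninduced replicate 1 Akr1c19 did not pass (-0.91 and -0.92), without P1 day 0 replicate 1 Ces2b and Ces2f did not (both 0.95), and Ces2b also failed without P1 day 0 replicate 2 (0.96) or P1 uninduced replicate 1 (adjusted p = 0.053). Within 1 of the P1 slides, which held 1 day 0 and 1 uninduced array, only Akr1c18 passed.

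Aldh1a2, a gene also expressed by mesothelial and stellate cells, went up in P1 CLiPs over 8 days without the inducers and was lower with them. With induction it stood at -0.78, -1.60 and -2.55, against 2.31, 2.07 and 1.88 in P1 uninduced CLiPs (-3.73, SE 0.481, adjusted p = 0.00011). The summed signal of 7 stellate cell and fibroblast markers ranged over 46.1 to 99.6 in P1 induced, 7.18 to 40.5 in P1 uninduced and 11.6 to 23.4 in P1 day 0 CLiPs, with Lrat dim in all 3 and Reln dim in P1 induced CLiPs. That of 4 mesothelial markers was 3.77 to 7.26, 5.25 to 13.8 and 12.6 to 28.1, with Upk3b and Upk1b dim in all 3 and Wt1 dim in the P1 induced and P1 uninduced CLiPs. Their part in the level of Aldh1a2 was not tested.

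P1 induced CLiPs remained far from fresh hepatocytes in these families. Of the 56 members, 45 were lower and 7 higher than in fresh hepatocytes, where 18.8% of all tested genes were lower and 20.3% higher. The median log2 change was -2.84, or -2.75 with dim genes at their bound, against 0.04 over all genes. The 11 members that passed the filter through the fresh arrays alone are among those tested here too. Akr1c6 was at least 6120-fold lower, Akr1c20 at least 1660-fold and Ces1f at least 1310-fold. Among genes that induction had raised, Aldh1a7 was -1.73 from fresh hepatocytes (levels of 4.70, 4.32 and 5.08 in P1 induced CLiPs against 6.36, 6.54 and 6.4 in fresh hepatocytes), beside -2.79 for Aldh1l1, -5.77 for Adh4, -7.81 for Ces1c and -11.80 for Ces3a. Akr1b7, which induction had also raised, did not pass, with levels of 0.77, 0.49 and 0.46 in P1 induced CLiPs against 1.20, 0.83 and 0.94 in fresh hepatocytes (-0.42, adjusted p = 0.34). The genes above fresh hepatocytes were Aldh18a1 (at least 68.6-fold), Aldh1l2 (at least 87.8-fold), Aldh1a2 (at least 3.12-fold, but 0.94 on the log2 scale after normexp), Akr1b8 (3.01), Akr1b10 (2.44), Aldh3b1 (1.96) and Akr1b3 (1.26). Akr1c18, above fresh hepatocytes in P1 day 0 CLiPs, was below them after induction (-1.85, adjusted p = 0.00089).

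**Figure D3:**
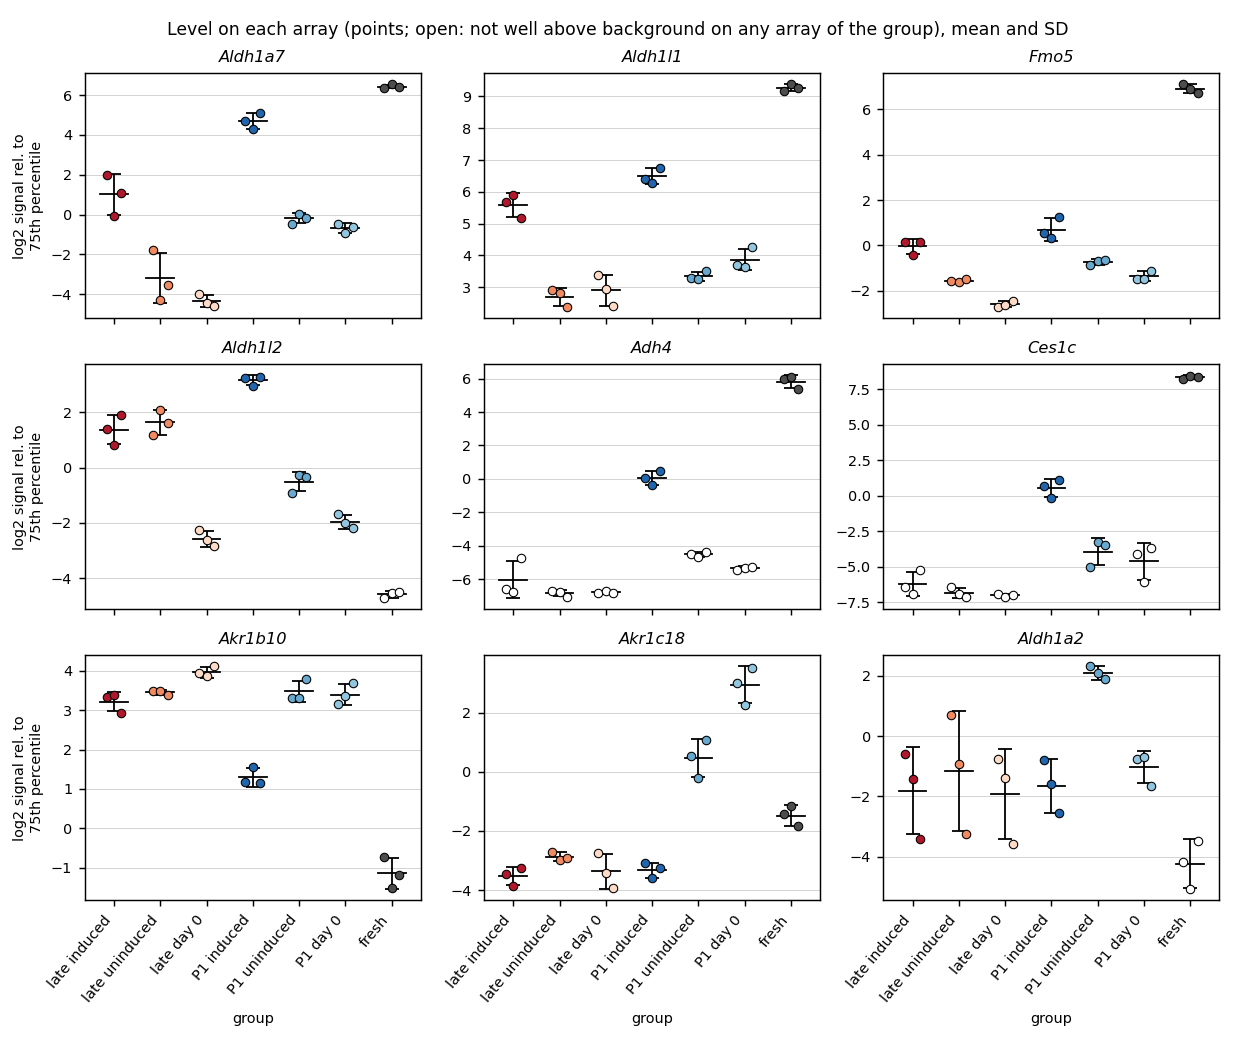
Log2 level, relative to the 75th percentile of the array, of 9 genes on each of the 21 arrays by group, with bars for the mean and SD of 3 arrays; open points are groups in which the probe was well above background on no array. Aldh1a7, Aldh1l1 and Fmo5 are higher in the induced than in the uninduced CLiPs at both passages, Aldh1l2 is as high in late uninduced as in late induced CLiPs, and Adh4 and Ces1c were well above background on all 3 arrays in P1 induced CLiPs and in no other CLiP group.

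Passaging was examined in late day 0 against P1 day 0 CLiPs, a comparison in which passage and scanner cannot be told apart. The summed signal of the 7 stellate cell and fibroblast markers was 0.177 to 0.346 in late day 0 CLiPs, with Lrat, Dcn, Col1a1, Col3a1 and Pdgfrb dim, against 11.6 to 23.4 in P1 day 0 CLiPs, with Lrat dim, and their part in this comparison was not tested. Of the 56 members 17 were lower and none higher, where 9.1% of all 22366 tested genes were lower and 4.33% higher. Of the 17, Adh4, Ces1b, Ces1c, Ces1e, Ces1f and Fmo4 were dim in both groups, which leaves 11 lower, beside 8% of all genes lower and 4.31% higher by the same count. Akr1c18 differed most, at -2.74, -3.44 and -3.94 in late day 0 CLiPs against 3.01, 2.27 and 3.52 in P1 day 0 CLiPs (-6.31, SE 0.352, adjusted p = 2.8e-09). All 6 tested Ces2 genes were lower. Ces2e stood at -2.16, -1.86 and -0.55 against 3.25, 3.40 and 4.16 (-5.12, SE 0.812), Ces2g at -5.80, -4.40 and -4.23 against -0.06, -0.50 and 0.31 (-4.73), and Ces2c, Ces2a and Ces2b changed by -3.16, -2.71 and -2.47. With slide as a random block, Ces2a, Ces2b, Ces2c and Ces2f did not pass (adjusted p = 0.25, 0.34, 0.14 and 0.096). Ces2b was also lost without P1 day 0 replicate 3 (-2.25) or late day 0 replicate 1 (-2.17), and Aldh7a1 without P1 day 0 replicate 3 (-0.96). Aldh1a7 was lower by 3.65 on the log2 scale, with levels of -3.99, -4.43 and -4.60 against -0.46, -0.95 and -0.65, and Fmo5 (-1.24), Aldh7a1 (-1.07) and Akr1b7 (at least 1.77-fold) were lower too. Fmo5 (-0.97) and Akr1b7 (-0.99) came under 2-fold after normexp, and Fmo5 did not pass with the mean of its probes (-0.74, adjusted p = 0.074). Most aldehyde dehydrogenases did not pass, among them Aldh2 (0.45), Aldh1a1 (0.50) and Aldh3a2 (0.13), nor did Akr1b10 (0.57), Akr1b8 (0.33) and Akr1b3 (0.17).

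**Figure D4:**
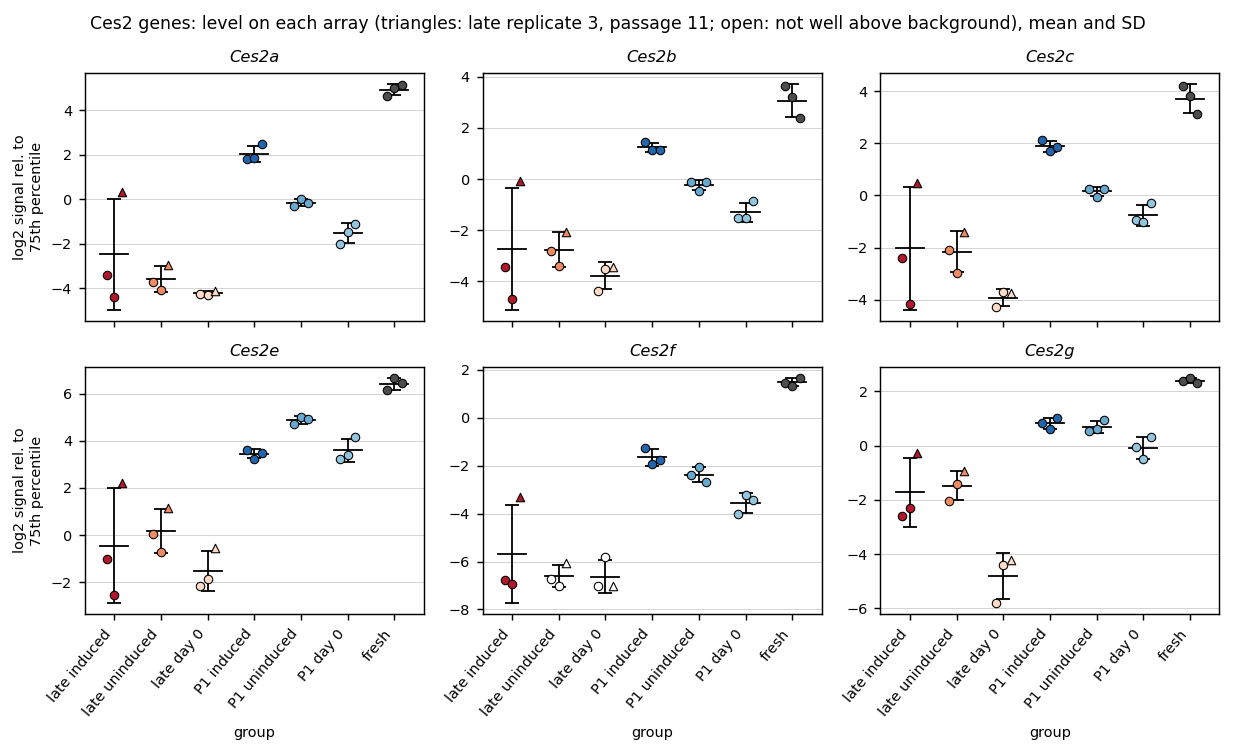
Log2 level of 6 Ces2 genes on each array by group, with the mean and SD of 3 arrays; triangles mark late replicate 3 (passage 11) and open symbols groups in which the probe was well above background on no array. The triangle of late induced replicate 3 lies above the other late induced arrays in all 6 genes, for Ces2a at 0.34 against -3.40 and -4.38.

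In late CLiPs, 8 days of culture without the inducers raised 7 of 40 tested members and lowered none, where 8.19% of all 21326 tested genes rose and 6.37% fell. Without a fold minimum 12 members were higher and 9 lower at an adjusted p under 0.05, beside 20.7% of all tested genes higher and 23.3% lower. Aldh1l2 stood at 1.19, 2.09 and 1.63 in late uninduced CLiPs against -2.25, -2.63 and -2.82 in late day 0 CLiPs (4.20, SE 0.314, adjusted p = 3.9e-05). All 3 uninduced arrays lay above all day 0 arrays, and the other 2 probes of Aldh1l2 gave 4.18 and 3.77. Ces2g rose to -2.03, -1.42 and -0.95, against -5.80, -4.40 and -4.23 (3.34), and Fmo2 was at least 2.46-fold and Akr1b7 at least 2.2-fold higher. Aldh6a1 (1.20), Aldh1b1 (1.04) and Fmo5 (1.03) rose by little more than 2-fold, and Aldh1b1 came under it without late day 0 replicate 3 (0.91) and Fmo5 without late day 0 replicate 1 (0.96) or late uninduced replicate 3 (0.99). With the mean of all probes Fmo2 (0.97) and Fmo5 (0.22) did not pass, and after normexp Akr1b7 (0.89), Aldh1b1 (0.68) and Fmo5 (0.74) did not. In a fit blocked on replicate number, Akr1c14 (-2.06, adjusted p = 0.033) and Aldh1a7 (1.14, adjusted p = 0.048) passed as well.

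Induction of late CLiPs raised 3 of the 40 members, Aldh1a7, Aldh1l1 and Fmo5, and lowered Akr1c19 and Fmo2, where 2.94% of all tested genes rose and 3.06% fell. Aldh1a7 had levels of 1.99, -0.05 and 1.08 in late induced CLiPs against -1.80, -4.27 and -3.55 in late uninduced CLiPs (4.21, SE 0.677, adjusted p = 0.0049). Aldh1l1 stood at 5.68, 5.91 and 5.19 against 2.92, 2.81 and 2.37 (2.89, SE 0.281, adjusted p = 0.00059), and Fmo5 at 0.15, -0.44 and 0.15 against -1.59, -1.63 and -1.51 (1.53, SE 0.165). In each of the 3 genes all induced arrays lay above all uninduced arrays, and these were genes that also rose on induction of P1 CLiPs. Akr1c19 stood at 2.40, 1.75 and 2.48 against 3.93, 4.04 and 3.98 (-1.77), and Fmo2 at -5.63, -5.24 and -4.39 against -3.29, -3.59 and -3.58 (-1.60), with its probe well above background on 1 of the 3 induced arrays. With the mean of all probes neither Fmo5 (1.15, adjusted p = 0.094) nor Fmo2 (-0.51) passed, and Fmo2 also came under 2-fold after normexp (-0.43). Aldh1l2 did not pass, with levels of 1.41, 0.83 and 1.90 in late induced CLiPs against 1.19, 2.09 and 1.63 in late uninduced CLiPs (-0.25, adjusted p = 0.62).

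The array of late induced replicate 3, of passage 11 and alone on its slide, stood apart from the other 2 late induced arrays in the carboxylesterases. These genes were chosen after their values were seen. In the order of replicates 1, 2 and 3, Ces2a stood at -3.40, -4.38 and 0.34, Ces2e at -1.03, -2.55 and 2.23, Ces2b at -3.43, -4.68 and -0.09 and Ces2c at -2.41, -4.17 and 0.49. Ces2f and Ces3a were well above background on that array alone among the 9 late arrays. In late uninduced CLiPs, too, replicate 3 had the highest level of Ces2a, Ces2b, Ces2c, Ces2e and Ces2g. Passage, slide and replicate cannot be told apart here. None of the tested carboxylesterases passed for late induction, with log2 changes of 1.11 for Ces2a (SE 1.04), 0.12 for Ces2c, 0.02 for Ces2b, -0.25 for Ces2g and -0.61 for Ces2e. Without this array the number of members called stayed at 5.

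**Figure D5:**
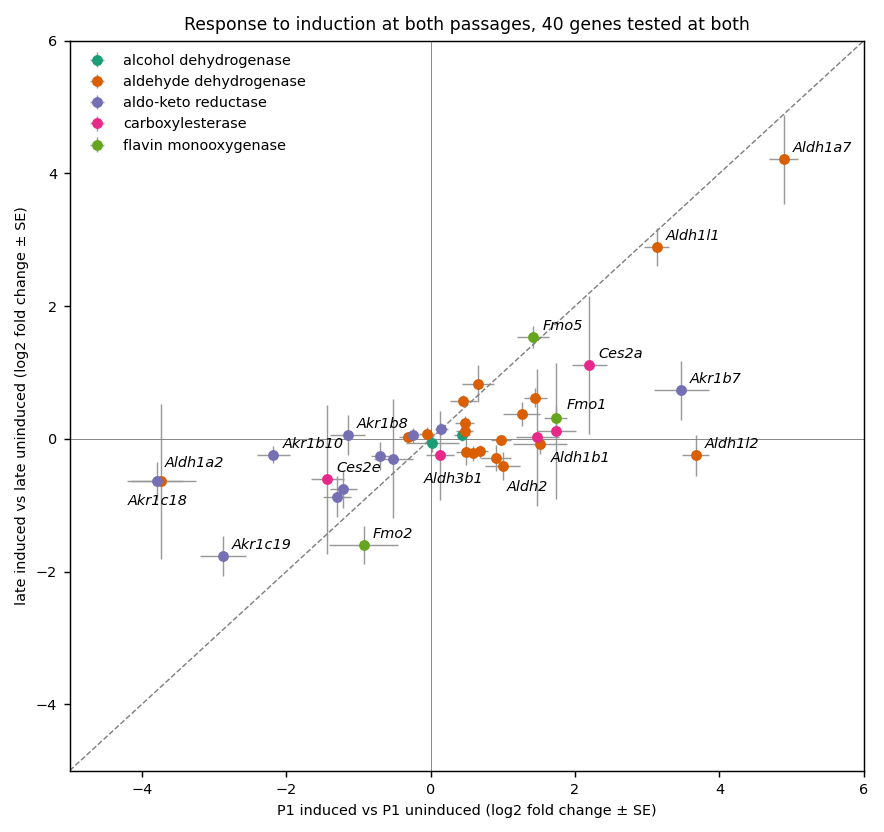
Log2 fold change on induction of P1 CLiPs (horizontal axis) and of late CLiPs (vertical axis) with SE bars, for the 40 members tested in both fits, coloured by family; the dashed line marks equal change. Aldh1a7, Aldh1l1 and Fmo5 lie near the line, and Aldh1l2, Akr1b10 and Akr1c18 lie far from 0 on the horizontal axis only, with late changes of -0.25, -0.24 and -0.64.

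The responses to induction were compared directly by their difference, late minus P1, in one fit of all arrays. It passed for 15 of the 56 members, 12 below 0 and 3 above, where 5.21% of all tested genes lay below and 4.73% above. For Aldh1a7, Aldh1l1 and Fmo5 the difference did not pass (-0.68, -0.24 and 0.11, with SE 0.712, 0.339 and 0.293, adjusted p = 0.59, 0.7 and 0.85). For Aldh1l2 it was -3.93 (SE 0.374, adjusted p = 5.1e-06). Adh4 and Ces1b, Ces1c, Ces1d and Ces1e, which rose in induced P1 CLiPs, were dim in all late groups, so that their late responses have no measured size. The differences above 0 were those of Akr1c18 (3.15, SE 0.498), Akr1b10 (1.94) and Akr1b8 (1.21), all of which fell on induction of P1 CLiPs. The call of Akr1b8 was lost in 10 of the 12 fits that left out 1 array (1.01 to 1.32), and that of Aldh1b1 (-1.58) without P1 induced replicate 2 or 3 or late induced replicate 2 (-1.41 to -1.45). Akr1c18 was already low in late uninduced CLiPs, at -2.72, -2.99 and -2.91, against -3.45, -3.86 and -3.24 in late induced CLiPs, whereas Akr1b10 stayed high in both, at 3.34, 3.38 and 2.94 in late induced and 3.49, 3.50 and 3.40 in late uninduced CLiPs. Without late induced replicate 3 the difference also passed for Ces2a (-2.50), Ces2b (-2.78), Ces2c (-2.87), Ces3a (-2.94) and Aldh1a2 (3.90), and Aldh1a2 also passed without late uninduced replicate 1 (4.02) and in a fit blocked on replicate number (3.09, adjusted p = 0.00031), against an adjusted p of 0.11 with all arrays and no block.

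Late induced CLiPs were set against fresh hepatocytes last. Of the 56 members 47 were lower and 6 higher, where 26.6% of all tested genes were lower and 24.7% higher, with a median log2 change of -4.30, or -3.91 with dim genes at their bound. All 15 tested carboxylesterases were lower, among them Ces1c (at least 7800-fold), Ces1f (at least 2650-fold). Ces3a stood at -6.81, -6.95 and -3.77 in late induced CLiPs, well above background on the third of these arrays alone, against 8.65, 8.92 and 8.31 in fresh hepatocytes. In this fit 8 of the 56 members had passed the filter through the fresh arrays alone, with 4 carboxylesterases among them. Aldh1a7 remained 5.42 lower on the log2 scale and Aldh1l1 3.68 lower. The 6 higher genes were Aldh18a1 (at least 86-fold), Aldh1l2 (at least 25.5-fold), Aldh1a2 (at least 2.79-fold), Akr1b10 (4.36), Akr1b8 (4.19) and Akr1b3 (1.82), all of them also higher in P1 induced CLiPs than in fresh hepatocytes. The call of Aldh1a2 was lost without late induced replicate 1 (1.81), late induced replicate 2 (2.23) or fresh replicate 2 (adjusted p = 0.087), after normexp (0.67) and with slide as a random block (adjusted p = 0.11), and in each late group replicate 3 had its lowest level. Aldh1a1 (-1.06) and Akr1c13 (-1.05) came under 2-fold without late induced replicate 3 or fresh replicate 2. After quantile normalization these genes changed by -0.34 and -0.36 (limma adjusted p = 0.18 and 0.17), and after normexp by -0.93 and -0.92. Akr1c12 (-1.33) also came under 2-fold after quantile normalization (-0.71). The comparisons of P1 day 0, P1 induced and late induced CLiPs with fresh hepatocytes share the fresh arrays.

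Other genes of the same pathways were read from lists. Of all tested genes 25.4% rose and 25.2% fell with conversion, and 9.68% rose and 9.02% fell on induction of P1 CLiPs. For induction of late CLiPs these shares were 2.94% and 3.06%. Of 20 other phase I oxidoreductases and hydrolases, 17 fell and 1, the carbonyl reductase gene Cbr3 (3.30), rose in P1 day 0 CLiPs against fresh hepatocytes, and 12 rose and 1 fell on induction of P1 CLiPs. Aox3 of the aldehyde oxidases (4.44), the arylacetamide deacetylase gene Aadac (3.06) and the quinone reductase gene Nqo1 (2.93) were among the 12, whereas the monoamine oxidase gene Maoa fell (-1.66). On induction of late CLiPs 2 of 14 rose. Of 16 regulators of hepatocytes and xenobiotic metabolism, 12 fell and 1 rose with conversion, and 9 rose on induction of P1 CLiPs, among them the nuclear receptor genes Nr1i2 (3.67) and Ppara (2.73) and Cebpa (1.56). On induction of late CLiPs 3 of 15 rose, Cebpa (2.01) and the bile acid receptor gene Nr1h4 (1.40) among them.

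Of 14 genes of one-carbon and proline metabolism, 5 rose and 8 fell with conversion, beside 25.4% and 25.2% of all tested genes. Those that rose included the mitochondrial folate gene Mthfd2 (7.34) and the proline synthesis gene Pycr1 (2.40), and Prodh of proline breakdown (-5.30) and Gnmt (-10.51) fell, as Aldh18a1 rose and Aldh4a1 fell. On induction of P1 CLiPs 5 rose and none fell, with Shmt2, a mitochondrial serine hydroxymethyltransferase gene, at 2.21. Over all tested genes 9.68% rose and 9.02% fell there. Over 8 days in late uninduced CLiPs, when Aldh1l2 rose, Shmt2 (0.00) and Mthfd2 (0.72) did not pass and Pycr1 (1.87) rose. Of 13 tested genes of retinoid handling, 9 fell and 2 rose with conversion. On induction of P1 CLiPs 5 rose, Rdh7 (5.97) and Bco1 (2.59) among them, and Rdh10 (-2.10) and Dhrs3 (-1.43) fell. Of 11 targets of the oxidative stress regulator Nrf2 outside these families, 3 rose and 2 fell with conversion, Slc7a11 (4.46) and Nqo1 (-5.39) among them, shares close to those over all tested genes (25.4% rose and 25.2% fell).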

How the data were processed

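RNA of 21 samples was amplified, labelled with Cy3 and hybridised to 1-colour Agilent arrays, per the labels' protocols. The deposited scanner files hold spot intensity values that were background-subtracted and detrended within each array by Agilent Feature Extraction, in version 10.7.3.1 for the late and 11.5.1.1 for the other arrays, per the file headers. Probe coordinates are on mm9, per the file headers.

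Processed intensity was converted to log2, averaged over the spots of a probe without control and outlier spots, and shifted by the 75th percentile of the array. Both tables deposited by the authors are on the log2 scale. The first equals the percentile-shifted values to 2.03e-06 and the second, of 40786 probes, of which 40760 matched, the same values centred per probe to 1.88e-06. Their column medians ran over -3.56 to -3.21 and -0.03 to 0.11, and 0 of their columns were left unused.

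Each gene name was represented by its brightest probe over the 21 arrays. Tests used limma 3.58.1 in R 4.3.3 (lmFit and eBayes) with Benjamini-Hochberg adjustment, on 12 fresh and P1 arrays, on 9 late arrays, or on all 21 for comparisons across them. The code was tested on simulated data. For a dim group, the bound took per array the higher of the lowest signal among probes well above background and the probe's own signal. Correlations between arrays of a group were 0.9775 to 0.9933, and no spot was saturated. The number of arrays limits the precision.

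The members, gene lists and tests were chosen with earlier results of these data known. Values on each array were given for a core of members and for the 3 highest and 3 lowest called members of each comparison, and the others by fold or count. The replicate number was no block in the main tests. Deviations of same-numbered late samples from their group means correlated in all 9 pairs (0.25 to 0.53). Those of P1 samples correlated at -0.11 to 0.41 over 9 pairs, the lowest being -0.11 and 0.07, both for replicate 2. These values cannot show whether the late numbers pair the samples, because replicate 3 differed in passage from the others in each late group. Whether differently numbered samples correlated less was not tested. One array titled as fresh also carries a passage label and was kept as fresh. Alternatives were quantile normalization, normexp background correction (offset 50), no filter on dim probes, the mean of all probes, every probe on its own, other sets of arrays in the fit, slide and replicate blocks, single slides, leaving out each array and no fold minimum. Counting only members measured in either group was added after seeing the data.

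Some members and list genes are not reported here. Promoter and gene names came from RefSeq (GRCm38.p6). All 68 members matched by symbol. Figures were drawn with matplotlib 3.10.9 in Python 3.11.15.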

Additional observations from a re-analysis of the deposited data

Results flagged for a closer look

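The response to induction differed between late and P1 CLiPs in 15 of 56 members, by limma's test of the difference itself (late minus P1, log2, adjusted over all 22366 tested genes). Of these, 12 lay below 0 and 3 above, beside 5.21% and 4.73% of all tested genes. Above 0 lay Akr1c18 (3.15, adjusted p = 0.00035), Akr1b10 (1.94, adjusted p = 0.00017) and Akr1b8 (1.21, adjusted p = 0.046). Below 0 lay Aldh3b1 (-1.20), Aldh2 (-1.40), Aldh1b1 (-1.58), Akr1b7 (-2.75) and Aldh1l2 (-3.93), and Fmo1 on its brightest probe (-1.42, but -0.11 with the mean of all probes). Other probes of Aldh2 gave -1.44, -1.61 and -0.92, the last of them under 2-fold. With only the first P1 slide and the shared late slide, the difference of Aldh2 was -0.98. Adh4 (-3.76), Ces1b (-2.91), Ces1c (-3.85), Ces1d (-2.60) and Ces1e (-3.33) were dim in every late group, and Ces1g (-1.70) in every CLiP group, so that these differences have no measured size. Late and P1 arrays differ in scanner and extraction software, and the part of either in these differences was not tested.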

How the results depend on the processing

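Across the alternatives, 5409 single-gene results of the core and of the highest and lowest called members kept their side of the threshold. Called results among them kept their direction, whereas results without a call could change sign. Of the remaining results 92 gained a call, 2 reversed and the rest lost a call. The reversals were those of Fmo1 in P1 induced CLiPs against fresh hepatocytes (-4.46 with the mean of all probes and -7.17 with every probe on its own), whose probes disagree. With 9 members called in P1 uninduced against P1 day 0 CLiPs, 5 were called with all 21 arrays in the fit, 1 within the second P1 slide and 24 without a fold minimum (16.6% of all genes then higher and 19.7% lower). Without a fold minimum, 42 in place of 27 were called on induction of P1 CLiPs (all genes 25.1% and 19.7%), 21 in place of 7 in late uninduced against late day 0 CLiPs (20.7% and 23.3%), and 27 in place of 17 in late day 0 against P1 day 0 CLiPs (14.3% and 21%). In the last comparison 9 were called after normexp (all genes 2.49% higher and 6.26% lower). With only the groups compared 9 were called, but of 38 tested in place of 56 (4.46% and 7.81%). Slide as a random block gave 10 (2.96% and 6.89%), and counting members measured in either group gave 11 (4.31% and 8%). On induction of late CLiPs 3 in place of 5 were called with the mean of all probes (all genes 2.67% higher and 2.56% lower). The cause of these changes was not tested, except that fewer criteria admit more calls.

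Leaving out each array in turn gave 52 to 53 calls for P1 day 0 against fresh, 7 to 11 for P1 uninduced against P1 day 0, 26 to 30 for P1 induction, 51 to 52 for P1 induced against fresh, 6 to 9 for late uninduced against late day 0, 5 to 5 for late induction, 12 to 18 for late day 0 against P1 day 0, 50 to 53 for late induced against fresh, and 13 to 20 for the difference of induction effects. With the replicate number as a block the counts in the same order were 52, 10, 27, 52, 9, 5, 17, 53 and 16. When arrays were left out, 5.25% to 6.5% of all genes were higher and 4.28% to 5.13% lower for P1 uninduced against P1 day 0. For late uninduced against late day 0 these shares were 7.38% to 8.44% and 5.94% to 6.74%. For late induction they were 2.39% to 2.99% and 2.56% to 3.01%. For the other comparisons the shares in the main fits are given above. The block changed calls of Akr1b7 in P1 uninduced CLiPs (adjusted p = 0.042), of Akr1c14 and Aldh1a7 in late uninduced CLiPs and of Aldh1a2 in the difference, and no other call. Signal over background limits 6 members that were well above background on no array, and dim groups give bounds only.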
